A study of Mus musculus with 8 samples.

Results

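Of the 56797 accessible regions (peaks) listed for wild-type (WT) mouse retina at 7 months, 787 were at least 4000 bp wide from start to end, and these broad peaks are described here. They made up 1.39% of the peaks and 4.96 of 50.2 Mb, or 9.89%, of the bases in peaks. Members were chosen by their WT width alone, so the widths, and the states in the mutant that are read from widths, are given as a description with no test. Retinas of male C57BL6/J mice were set against retinas of male mice of the Spata7 mutant line of Eblimit and colleagues, called knockout (KO) here as in the sample labels; the labels give no other allele or agent, and C57BL6/J is also the label of the KO animals in the RNA libraries. Single-cell ATAC sequencing, which counts where a transposase can cut DNA in nuclei, used 1 library per genotype, from WT retina at 7 months and from KO retina at 6 months. Single-cell RNA sequencing in nanowells was done in 1 WT and 1 KO library at each of 1, 3 and 6 months. No group had a second library, and in the ATAC pair genotype, age and library cannot be told apart.

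Most peaks in an ATAC experiment cover about the length of a nucleosome-free promoter or enhancer. Long unbroken stretches of accessible DNA are known from genes that a cell type transcribes very strongly or that define its identity. Rods, the dim-light photoreceptors, make up most cells of the mouse retina, and their outer segments carry the phototransduction cascade from the light receptor through transducin and phosphodiesterase to the cyclic-nucleotide-gated channel. Spata7 encodes a protein of the photoreceptor connecting cilium, the passage from the cell body to the outer segment, and its loss leads to photoreceptor degeneration.

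Sequences at the start sites inside 6 broad peaks are shown to set rod genes whose peak was split in KO (Sag, Grk1), photoreceptor regulators whose peak was kept or widened (Crx, Otx2) and immediate early genes (Fos, Junb) next to each other. These 6 were chosen after their motifs and KO states had been seen. Each run is RefSeq sequence of build GRCm38.p6 in the direction of transcription, from 250 bases before to 50 after a RefSeq start. Capitals mark TAATCC or its reverse complement GGATTA, the core bound by the CRX and OTX2 homeodomains, and TGCTGA or its reverse complement TCAGCA, a core of the elements bound by NRL. The windows are chr1:87803430-87803729 on the plus strand for Sag, chr8:13404831-13405130 on the plus strand for Grk1, chr7:15879906-15880205 on the minus strand for Crx and chr14:48665060-48665359 on the minus strand for Otx2. Those of Fos and Junb are chr12:85473640-85473939 on the plus strand and chr8:84978699-84978998 on the minus strand.
Sag: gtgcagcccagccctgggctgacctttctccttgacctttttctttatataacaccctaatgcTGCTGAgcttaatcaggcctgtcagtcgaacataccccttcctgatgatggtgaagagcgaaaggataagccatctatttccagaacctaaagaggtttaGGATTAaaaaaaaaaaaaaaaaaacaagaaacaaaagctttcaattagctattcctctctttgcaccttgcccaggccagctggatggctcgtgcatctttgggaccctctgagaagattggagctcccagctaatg
Grk1: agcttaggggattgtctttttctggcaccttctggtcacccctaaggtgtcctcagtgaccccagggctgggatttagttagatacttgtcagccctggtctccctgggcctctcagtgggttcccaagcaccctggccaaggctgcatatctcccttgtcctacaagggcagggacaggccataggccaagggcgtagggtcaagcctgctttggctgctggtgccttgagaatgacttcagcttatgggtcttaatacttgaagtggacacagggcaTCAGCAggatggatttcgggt
Crx: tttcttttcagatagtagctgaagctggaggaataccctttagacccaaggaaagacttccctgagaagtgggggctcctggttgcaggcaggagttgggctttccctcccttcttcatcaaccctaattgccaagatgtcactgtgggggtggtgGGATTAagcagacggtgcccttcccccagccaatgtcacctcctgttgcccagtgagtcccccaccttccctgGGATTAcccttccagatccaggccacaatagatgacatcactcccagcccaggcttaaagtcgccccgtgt
Otx2: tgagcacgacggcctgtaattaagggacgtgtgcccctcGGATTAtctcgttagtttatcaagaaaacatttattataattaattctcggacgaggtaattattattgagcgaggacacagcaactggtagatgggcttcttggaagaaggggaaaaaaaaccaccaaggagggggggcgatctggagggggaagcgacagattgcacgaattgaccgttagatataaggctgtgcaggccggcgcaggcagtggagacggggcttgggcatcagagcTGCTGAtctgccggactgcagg
Fos: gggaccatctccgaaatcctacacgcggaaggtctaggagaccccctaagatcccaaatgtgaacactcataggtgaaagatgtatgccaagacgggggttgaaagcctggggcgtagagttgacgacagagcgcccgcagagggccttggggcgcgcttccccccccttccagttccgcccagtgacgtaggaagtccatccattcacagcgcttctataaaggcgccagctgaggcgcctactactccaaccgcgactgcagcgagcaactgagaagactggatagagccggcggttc
Junb: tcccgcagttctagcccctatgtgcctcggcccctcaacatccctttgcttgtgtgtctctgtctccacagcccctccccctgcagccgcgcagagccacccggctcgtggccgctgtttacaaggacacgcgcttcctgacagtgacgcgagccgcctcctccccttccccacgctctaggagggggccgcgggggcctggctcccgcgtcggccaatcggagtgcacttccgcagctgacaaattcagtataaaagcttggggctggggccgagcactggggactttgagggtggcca
The Sag window holds 1 match of each core, the Grk1 window 1 TGCTGA match, the Crx window 2 TAATCC matches and this Otx2 window 1 of each. The peak at Otx2 holds 2 more RefSeq start windows, 1 with a TGCTGA match alone and 1 with neither core. Neither core occurs in the Fos and Junb windows, which hold 20 and 21 CpG dinucleotides. The Sag window holds 3, the Grk1 window 2, the Crx window 3 and the printed Otx2 window 16. The median over all windows inside broad peaks was 21.0. A TAATCC match lay in 10.6% of the 662 promoter windows inside broad peaks, in 5.36% of 11581 windows inside narrower WT peaks and in 7.06% of all 32841 windows. For TGCTGA the shares were 16.5%, 14.0% and 19.5%. In the 32 windows of genes from the lists of phototransduction genes and photoreceptor transcription factors that lie in broad peaks, 31.2% held TAATCC and 28.1% held TGCTGA. Cores were searched on both strands, no core overlaps the other by sequence, and a match is a description of letters only.

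The RNA libraries held 216 to 877 wells and 12356586 to 182310499 reads each. Spata7 had 26.1, 20.2 and 32.2 CPM (reads of a gene scaled to a library's total) over all wells of the WT libraries and 4.07, 1.38 and 3.59 CPM in the KO libraries at 1, 3 and 6 months. Against its male label, the WT library of 1 month held 110 CPM of Xist and no read of Uty, Kdm5d, Eif2s3y or Ddx3y on the Y chromosome, where 3 reads would be 0.0165 CPM. It also had the most reads, so values are given by age and fits are given without that age. Chip positions, which serve as barcodes, were shared by up to 136 wells between 2 libraries and by 0 in 3 of 15 pairs of libraries. The depth of the ATAC libraries is unknown. In lists made from all nuclei of a library, fewer nuclei of a cell type and less accessible DNA per nucleus cannot be told apart.

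The broad peaks had a median width of 5004 bp, against 535 bp for all WT peaks. There were 69 of 10 kb or more and 30 of 15 kb or more. The deposited annotation placed 507 (64.4%) at promoters, 279 (35.5%) distal to them and 1 in an intergenic region, against 21.8% at promoters among all WT peaks and 65.4% among WT peaks of 2 to 4 kb. RefSeq gene bodies held 78.5% of their bases (69.7% for peaks of 2 to 4 kb). A RefSeq start site lay in 428 of the 760 broad peaks that could be compared with the start table (56.3%; 56.8% for 2 to 4 kb). In 48 the peak covered at least 1 whole gene. Just inside the threshold were peaks at Nsd1 (4000 bp), Tub (4001 bp), 8030462N17Rik (4002 bp), Vldlr (4003 bp) and Smarca2 (4004 bp). Just outside were peaks at Zdhhc7 (3993 bp), Camsap1 (3992 bp), and Vamp2, Glcci1 and Zfp651 (3991 bp each).

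By the annotation, 727 genes had a broad peak, 4.48% of the 16240 genes named for any WT peak. Among the fixed cell type markers, 17 of 20 rod markers had one. The same held for 1 of 12 cone markers (Thrb, a thyroid hormone receptor), 2 of 15 bipolar markers (Otx2 and Prkca), 1 of 14 amacrine markers (Meis2) and 0 of 17 Müller glia markers. None of the horizontal, ganglion, astrocyte, microglia, endothelial, pericyte or pigment epithelium markers had one. Of the 7 gene lists, photoreceptor transcription factors had broad peaks most often (14 of 22 genes), followed by phototransduction and outer segment genes (23 of 41), immediate early and stress genes (14 of 28) and genes of metabolism and housekeeping (11 of 24). Synapse and ribbon genes (9 of 23), chromatin regulators (12 of 50) and other retinal transcription factors (4 of 55) had them less often, and each of the 7 shares was above the 4.48% of all genes. These lists hold many highly expressed retinal genes, and expression level was not matched.

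Each broad WT peak was set against the KO peaks that overlap it by at least 1 bp. With 2 or more KO peaks it is called split. With 1 it is called shortened below 0.9 of the WT width, widened above 1.1 of it, and kept in between. In KO, 436 broad peaks were kept (55.4%; 32.2% of all WT peaks) and 154 were widened (19.6%; 48.3% of all WT peaks). A further 43 were shortened (5.46%; 12.8% of all) and 154 were split (19.6%; 0.803% of all). None was without a KO peak, against 5.87% of all WT peaks. A wide peak offers more places for a gap, so peaks of 2 to 4 kb are the nearer background: 2503 of 4101 of those were kept, 25.5% widened, 8.49% shortened, 4.88% split and 0.146% without a KO peak. A KO peak of 4000 bp or more lay over 671 of the 787 (85.3%). KO peaks covered 93.7% of the bases of broad peaks and 92.8% of the bases of all WT peaks.

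**Figure D1:**
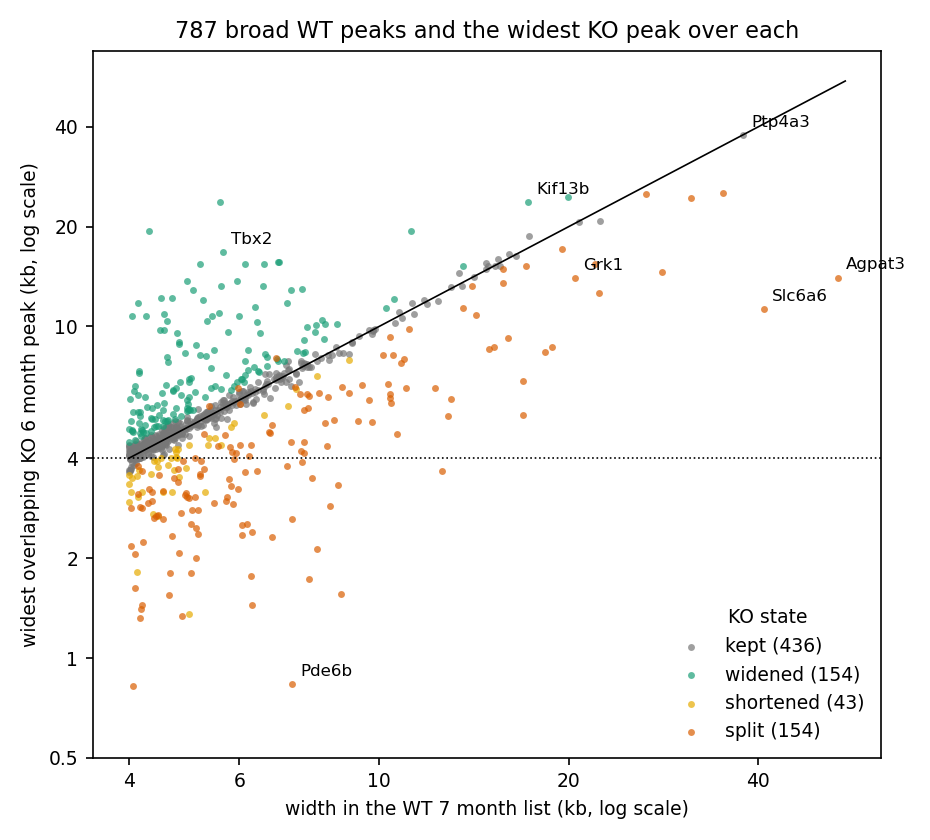
Each point is 1 of the 787 broad WT peaks, with its width in the WT list on the horizontal axis and the width of the widest overlapping KO peak on the vertical axis (kb, both log scales); colours give the KO state, the solid line marks equal widths and the dotted line 4 kb. Points of the 436 kept peaks lie along the line, widened peaks lie above it, and the split peak of 7270 bp at Pde6b has a widest KO piece of 834 bp.

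The share split grew with width, from 9.67% of peaks of 4 to 5 kb to 19.6% at 5 to 6 kb, 27.1% at 6 to 10 kb and 56.5% (39 of 69) at 10 kb or more. The reverse comparison had the same form. Of 1106 KO peaks of 4000 bp or more, 33.3% were split in the WT list, from 29.2% at 4 to 5 kb to 42.7% at 10 kb or more. The KO list was the longer one, with 91130 peaks and 72.9 Mb. Splitting is therefore seen in both directions, and both are given for each gene list below.

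**Figure D2:**
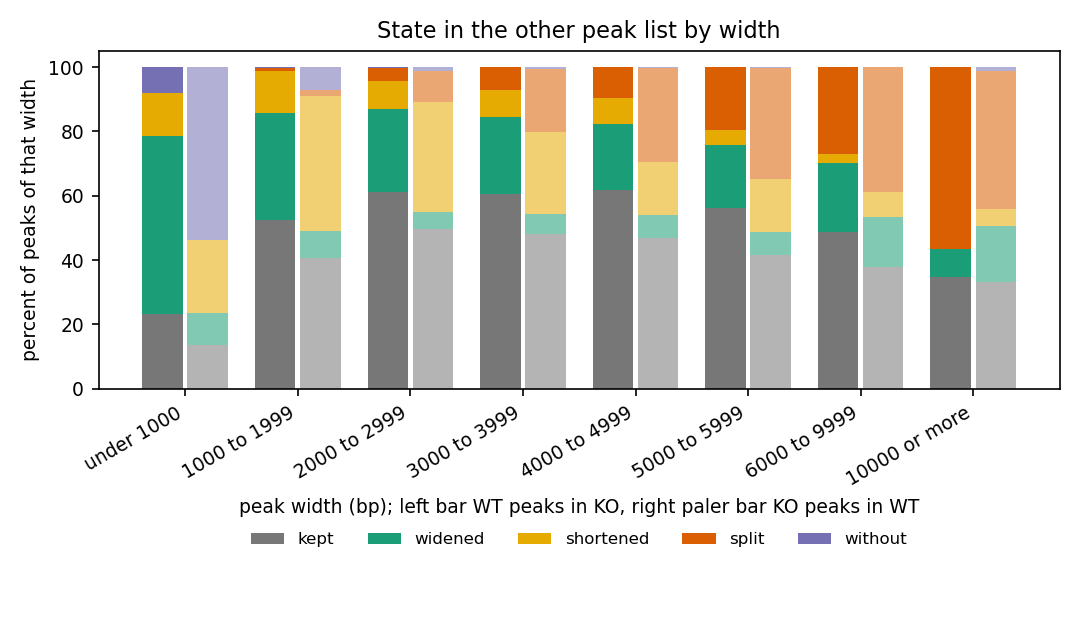
Stacked bars give the percent of peaks of each width class (bp) in each state in the other list; left bars are WT peaks compared with KO, right paler bars are KO peaks compared with WT. The split share rises with width in both, to 56.5% of WT peaks and 42.7% of KO peaks of 10 kb or more.

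The gaps that split peaks were mostly short. Of 220 gaps between KO pieces, 185 (84.1%) were under 1000 bp, with a median of 669 bp and a range of 501 to 2201 bp. No neighbouring peaks in either list lay closer than 501 bp, so a gap is resolved only above that size. Shorter gaps inside the broad WT peaks would not be seen either, so those peaks are not shown to be unbroken. When KO peaks closer than 1000 bp were joined and WT peaks left as they are, 31 peaks (3.94%) stayed split, and by that construction 44.6% counted as widened. When both lists were joined in the same way, 189 of 1266 regions of 4000 bp or more (14.9%) were split. Most splits made 2 pieces (113 peaks), 30 made 3, and the most pieces were 13, at Slc6a6. Distal broad peaks were split in 29.4% of cases (82 of 279) and promoter peaks in 14.2% (72 of 507). Bases lost from KO peaks lay away from start sites: within 500 bp of a RefSeq start 0.893% of the broad-peak bases had no KO peak, against 2.06% at 500 to 1000 bp, 3.81% at 1000 to 2000 bp, 6.97% at 2000 to 5000 bp, 10.2% at 5000 to 10000 bp and 8.19% beyond.

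The widest peaks lay at genes of several kinds. The widest covered 53540 bp of Agpat3, an acyltransferase of phospholipid synthesis (chr10:78268167-78321706, mm10, promoter). In KO it was 6 peaks of at most 14023 bp, with 3757 bp uncovered. Next were 40864 bp at Slc6a6, the taurine transporter (chr6:91702758-91743621, distal), cut into 13 KO pieces with 8433 bp uncovered. At Ptp4a3, a protein tyrosine phosphatase (chr15:73720310-73758189, promoter), a single KO peak of 37842 bp covered nearly all of the 37880 bp. The peak of 35132 bp at Stk35, a serine/threonine kinase, held the whole gene and was 2 KO peaks of 25186 and 9026 bp. The KO pieces of these 4 thus ranged from 1 to 13, and 2 of the 4 (Agpat3 and Slc6a6) had no KO piece longer than 14023 bp.

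Several genes carried a run of broad peaks. There were 108 genes with at least 2 and 18 with at least 3. Casz1, a zinc finger factor of retinal cell fate, had 13 broad peaks of 93.2 kb in all, of which 7 were widened, 2 kept and 4 split, with 93.0% of bases inside KO peaks. The widest of these, 22332 bp, was split, with 12641 bp in its widest KO piece. Esrrb, an orphan nuclear receptor expressed in rods, had 7 of 47.3 kb, with 5 split, 1 shortened, 1 kept and 79.7% covered. Pde6a, the alpha subunit of rod phosphodiesterase, had 5 of 30.4 kb, with 2 split, 2 shortened, 1 kept and 53.0% covered. Gse1, a coiled-coil protein of a corepressor complex, had 6 of 47.4 kb with 97.8% covered. Neighbouring peaks of a gene are not independent of each other.

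The 23 phototransduction and outer segment genes had 32 broad peaks with a median width of 8425 bp. In KO 18 were split, 12 kept, 2 shortened and 0 widened, and 86.2% of their bases lay in KO peaks. At equal width the share split was 4 of 8 at 4 to 6 kb, where 12.4% of all broad peaks were split. It was 6 of 11 at 6 to 10 kb (27.1% of all) and 8 of 13 at 10 kb or more (56.5% of all). In the other direction, 98.7% of the bases of the 27 broad KO peaks of these genes lay in WT peaks and 1 of the 27 was split in WT. Counting peaks of any width, they held 608 kb in the WT list and 527 kb in the KO list, a ratio of 0.87 where the ratio over all peaks was 1.45. With KO peaks alone joined, 6 of 32 stayed split. With both lists joined, 20 of 40 regions were split, 6 shortened and 1 had no KO peak, and 81.6% of the bases were covered.

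The transducin genes kept most of their accessible stretch. The peak that holds the whole of Gnat1, rod transducin alpha, was 22423 bp wide (chr9:107661995-107684417) and its KO peak 20833 bp. Gnb1, transducin beta, had a peak of 31269 bp at its promoter (chr4:155520639-155551907) that was 3 KO peaks of 24435, 1066 and 3420 bp. Gnb1 had 2 further broad peaks, of 6723 bp (kept) and 4858 bp (split, 62.1% covered).

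The phosphodiesterase subunits lost more of their bases. Pde6b, the beta subunit, had a promoter peak of 8215 bp (chr5:108386329-108394543) that was 3 KO peaks of 5106, 715 and 834 bp. Its second broad peak, 7270 bp in the gene (chr5:108401549-108408818), kept 19.9% of its bases in 3 KO peaks, the lowest share of any split peak. A further peak of 18810 bp annotated to the Atp5k promoter, and to Pde6b as distal, was 5 KO peaks with 82.8% of bases covered. At Pde6a the promoter peak of 6317 bp was kept at 5860 bp, while the 4 distal ones kept 26.6%, 27.2%, 48.1% and 73.9% of their bases. The peak of 5825 bp near Pde6g, the inhibitory subunit, kept 80.9% in 2 pieces. Cnga1, the channel's alpha subunit, had a promoter peak of 4341 bp that was kept at 4061 bp. Slc24a1, the rod exchanger of sodium, calcium and potassium, had broad peaks of 10816 bp (chr9:64942981-64953796, promoter) and 10694 bp (chr9:64930456-64941149, distal), both split, with 87.3% and 67.5% of bases in KO peaks.

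Shut-off and calcium feedback genes were mixed. Grk1, the kinase that starts receptor shut-off, lay whole within a peak of 20491 bp (chr8:13402490-13422980), of which 13999 bp remained in 1 KO peak and 6177 bp had none. Sag, rod arrestin, had peaks of 22003 bp (chr1:87800284-87822286, promoter) and 28094 bp (chr1:87822925-87851018, shared with Dgkd), each split into 3 with 92.7% and 96.1% of bases covered. Rcvrn, recoverin, lay whole in a peak of 15261 bp that was 15271 bp in KO. Guca1b, a guanylate cyclase activator, lay whole in a peak of 20778 bp that was 20613 bp in KO. Rgs9 and Rgs9bp, which speed the hydrolysis of GTP by transducin, had promoter peaks of 4838 and 7499 bp, both split, with 74.9% and 83.6% covered. Gnb5, the beta subunit that partners Rgs9, had a promoter peak of 17143 bp cut into 15239 and 995 bp, and Pdc, phosducin, which binds transducin subunits, had one of 6403 bp that was split with 81.0% covered.

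Among structural genes of the outer segment, Prph2 and Rom1, the disc rim proteins, had peaks of 26521 bp and 5921 bp. The Prph2 peak was cut near 1 end into 25136 and 722 bp, and Rom1 was kept at 5811 bp. Rp1, a microtubule protein of the axoneme, had a promoter peak kept at 10236 of 10596 bp and a distal peak of 5151 bp that was split with 63.9% covered. Abca4, the retinoid flippase, was kept at 7170 of 7388 bp. Unc119 and Reep6, which serve in trafficking of lipidated and membrane proteins, were kept at 9770 of 9779 bp and 8328 of 8635 bp.

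The 33 broad peaks of 14 photoreceptor transcription factors were less one-sided, with 12 widened, 11 split, 9 kept and 1 shortened, and 92.1% of bases in KO peaks. Of their 33 broad KO peaks 16 (48.5%) were split in WT, against 33.3% of all broad KO peaks. Casz1 and Esrrb hold 20 of the 33, so the counts rest largely on 2 genes. Crx, the homeodomain activator of photoreceptor genes, kept its promoter peak at 11711 of 11904 bp (chr7:15874384-15886287), and a second peak of 8605 bp was split with 77.9% covered. Nrl, the rod-specifying leucine zipper factor, lay whole in a peak kept at 11969 of 12393 bp. Nr2e3, the nuclear receptor that represses cone genes in rods, had a peak of 15750 bp cut into 13556 and 1326 bp. Otx2, which acts upstream of Crx and is also expressed in bipolar cells, went from 7549 bp (chr14:48664573-48672121) to 12998 bp. Tbx2, a T-box factor of cone subtype and of other retinal cells, went from 5649 bp to a KO peak of 16758 bp that takes in 4 WT peaks. Nr1d1, a clock repressor, Neurod1, a basic helix-loop-helix factor, and Prdm1, a repressor of bipolar fate, were widened to 11991, 7264 and 4818 bp from 5253, 4161 and 4221 bp. Mef2d, a partner of Crx, was kept at 16550 bp.

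Peaks of immediate early and stress genes were mostly widened. Of their 16 broad peaks 11 were widened, 4 kept, 1 shortened and 0 split, and 99.0% of bases lay in KO peaks. In the other direction 10 of their 23 broad KO peaks (43.5%) were split in WT, 80.9% of the bases of the 23 lay in WT peaks, and all their peaks together held 228 kb in WT and 309 kb in KO, a ratio of 1.35 that is below the 1.45 over all peaks. Fos, an AP-1 subunit, went from 5472 to 8498 bp by joining 2 WT peaks. Jund and Egr1 went from 7936 to 10079 bp and from 7402 to 8419 bp, and Junb and Jun were kept, at 7758 bp for 7521 and 6219 bp for 5782. Per1, a clock gene, went from 4096 to 6637 bp, and Atf4, the effector of the integrated stress response, was the shortened one, from 5485 to 4615 bp. With a tolerance of 25% instead of 10%, 3 were widened and 13 kept, so most of this widening was between those limits.

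Chromatin regulators had the most uniform record, with 12 of 15 peaks kept, 2 widened (Dnmt3a, a DNA methyltransferase, to 6951 from 4991 bp, and Kdm6b, an H3K27 demethylase, to 7895 from 6115 bp) and 1 split, at Kdm5b, an H3K4 demethylase. Of 11 synapse peaks 6 were kept, 2 widened and 3 split. The split ones were at Slc17a7, the vesicular glutamate transporter (9239 and 6187 of 16017 bp), Cplx4, a complexin of ribbon synapses (13225 of 14060 bp in the larger piece), and the distal peak of Elfn1, a synaptic adhesion protein. Metabolism and housekeeping genes had 17 peaks, with 8 kept, 4 widened, 2 shortened and 3 split. All 3 split ones were distal, 2 at Ldha, lactate dehydrogenase A, and 1 at Eno1, enolase. Hk2, a hexokinase of photoreceptors, was shortened from 5351 to 4382 bp. Of the 6 peaks at other retinal transcription factors 3 were kept, 2 widened (Meis2 and Nfic), 1 shortened (Isl2) and 0 split. That list showed the largest difference between directions, with 97.7% of its broad WT bases in KO peaks and 69.1% of its broad KO bases in WT peaks. It went from 6 broad WT peaks to 18 broad KO peaks, of which 12 (66.7%) were split in WT. The same count was 3 of 19 for chromatin regulators, 4 of 14 for synapse genes and 5 of 18 for metabolism and housekeeping genes.

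**Figure D3:**
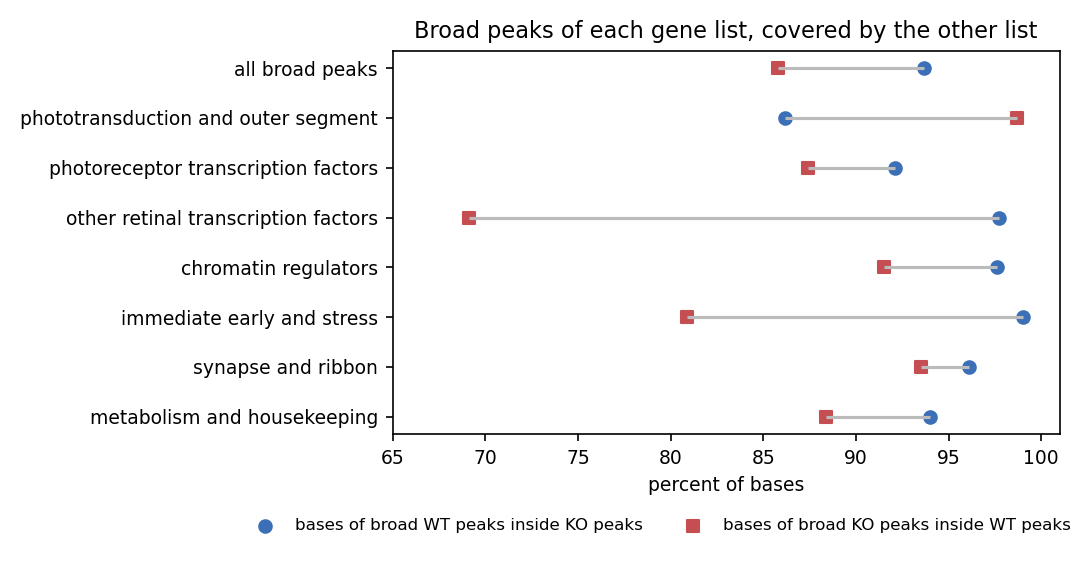
For all broad peaks and for those of each gene list, circles give the percent of bases of broad WT peaks that lie in KO peaks and squares the percent of bases of broad KO peaks that lie in WT peaks; the axis starts at 65%. Only the phototransduction and outer segment list has the square (98.7%) to the right of the circle (86.2%).

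By KO width minus WT width, the most widened peaks were at Kif13b, a kinesin, Gpr62, an orphan receptor, Tbx2 and Tpd52, a trafficking protein. At Kif13b a single KO peak of 23687 bp took in 2 broad WT peaks of 17232 and 5589 bp, and at Tpd52 a KO peak of 15476 bp took in 4 WT peaks, 2 of them broad. The peak of 4308 bp over Gpr62 lay in a KO peak of 19382 bp that takes in 3 WT peaks. Much of this width was accessible in WT too: of the KO peaks 866 bp at Kif13b, 1529 bp at Gpr62, 1920 bp at Tpd52 and 6340 bp at Tbx2 lay in no WT peak. Of the 154 widened peaks, 93 lay in a KO peak that holds 2 or more WT peaks. The shortened peaks with the largest loss were at Pde6a (4995 to 1360 bp), Ankrd44, an ankyrin-repeat subunit of a phosphatase complex (4125 to 1822 bp), Grtp1, a growth hormone-regulated protein (5294 to 3178 bp), Acsl3 with Utp14b (4372 to 2717 bp) and Ap2a2, a clathrin adaptor subunit (4451 to 2682 bp). By bases lost the split peaks led with Slc6a6, Grk1, the distal Pde6b peak, a distal peak of 7753 bp at Pitpnm3, a phosphatidylinositol transfer protein (4621 bp lost), and the Pde6a peak of 6283 bp (4609 bp lost).

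RNA of these genes was read from wells assigned to a cell class by marker genes. Markers that are broad-peak genes were left out of the score of every class, among them Thrb, Otx2, Prkca and Meis2. Since 17 of 20 rod markers are such genes, the rod gate rests on the other 3, Cngb1, Gngt1 and Samd11. Rod wells numbered 248, 61 and 91 in WT and 146, 144 and 196 in KO at 1, 3 and 6 months. Marker scores were standardised within each library. Standardised over all wells together, they gave 244, 81 and 135 rod wells in WT and 166, 61 and 148 in KO. As a check, Rom1 had a median over the 6 libraries of 13569 CPM in rod wells and of 3818 to 5402 CPM in cone, bipolar, Müller and amacrine wells. Why it was read in those wells was not tested. Of the 727 genes 703 were found in the count tables and 610 were measured, with a mean of at least 5 CPM over classes. The highest mean log2 level was in rod wells for 235 of the 610 (38.5%), against 20.2% of all 10891 genes measured. In 42 (6.89%) rod wells were highest in each of the 6 libraries, against 0.634% of all genes. Genes whose widest WT peak is 2 to 4 kb gave 21.4% and 0.562%. Bipolar wells were highest for 131 broad-peak genes (21.5%; 27.9% of all), Müller wells for 98 (16.1%; 21.2%), cone wells for 16.6% (15.9%) and amacrine wells for 45 (7.38%; 14.9%).

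The class with the highest level differed between KO states. Rod wells were highest for 59 of 113 genes whose widest broad peak was split (52.2%), 16 of 30 shortened (53.3%), 137 of 358 kept (38.3%) and 23 of 109 widened (21.1%). Of the widened group 44 (40.4%) were highest in bipolar wells. Median WT widths were 6286 bp for split peaks, 4717 bp for shortened, 4798 bp for kept and 4978 bp for widened ones. The shares were not matched for width. Among the phototransduction genes with a broad peak, 22 of 23 were highest in rod wells. The exception was Guca1a, a guanylate cyclase activator, with a median of 5426 CPM in cone wells and 4072 CPM in rod wells, and it was highest in cone wells in 6 of 6 libraries. The photoreceptor factors were divided, with 7 of 14 highest in rod wells, 4 in cone wells and 3 in bipolar wells. Otx2 had medians of 278 CPM in bipolar and 216 CPM in rod wells, and Tbx2 of 53.0 CPM in bipolar and 1.79 CPM in rod wells. Of 13 immediate early and stress genes measured 5 were highest in Müller wells, among them Fos (411 CPM against 13.1 CPM in rod wells), Jun (290 and 26.6 CPM) and Junb (141 and 21.5 CPM), each in 6 of 6 libraries. Sgk1, a kinase of ion transport, was highest in rod wells in 6 of 6, with 447 CPM.

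The comparison of genotypes in rod wells asked whether RNA of broad-peak genes differs in the mutant. Ratios are log2 of KO over WT CPM after adding 1 CPM, which understates changes of low genes. Over all 9595 genes the median ratio was 0.36, 0.63 and 0.21 at 1, 3 and 6 months, so most genes lay above 0 and ratios are read against these. Broad-peak genes had medians of 0.21, 0.15 and -0.01. By the state of the widest peak the medians were -0.11, -0.09 and -0.24 for split, 0.00, -0.32 and -0.28 for shortened, 0.16, 0.20 and 0.06 for kept and 0.67, 0.35 and 0.11 for widened. Split-peak genes were lower in KO at all 3 ages in 29 of 107 cases (27.1%) and widened-peak genes in 4 of 100, against 95 of 590 broad-peak genes (16.1%) and 7.75% of all genes. Higher at all 3 ages were 13 split-peak genes (12.1%), 26 widened-peak genes (26.0%) and 126 broad-peak genes (21.4%), against 25.5% of all genes.

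Marker sums of several other classes differed between genotypes in these wells without overlap, and others overlapped. All 20 rod markers were detected in every library and summed to 155734 to 160648 CPM in WT rod wells and 101315 to 140402 CPM in KO rod wells. The 17 Müller markers summed to 772 to 2090 CPM in WT and 5665 to 11309 CPM in KO, with 1 of them at 0 in WT 3 months and none at 0 in the other libraries. The 15 bipolar markers summed to 356 to 812 CPM in WT and 1117 to 2996 CPM in KO, and the 12 cone markers to 352 to 1010 CPM and 1405 to 3022 CPM. The 14 amacrine markers overlapped between genotypes, at 1022 to 1670 CPM in WT and 1325 to 1881 CPM in KO, as did the 8 pigment epithelium markers, at 0.277 to 26.2 CPM and 1.54 to 36.9 CPM. Sums of the horizontal, ganglion, astrocyte, microglia, endothelial and pericyte markers were each higher in every KO library than in every WT library. Their part in the ratios was not tested.

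**Figure D4:**
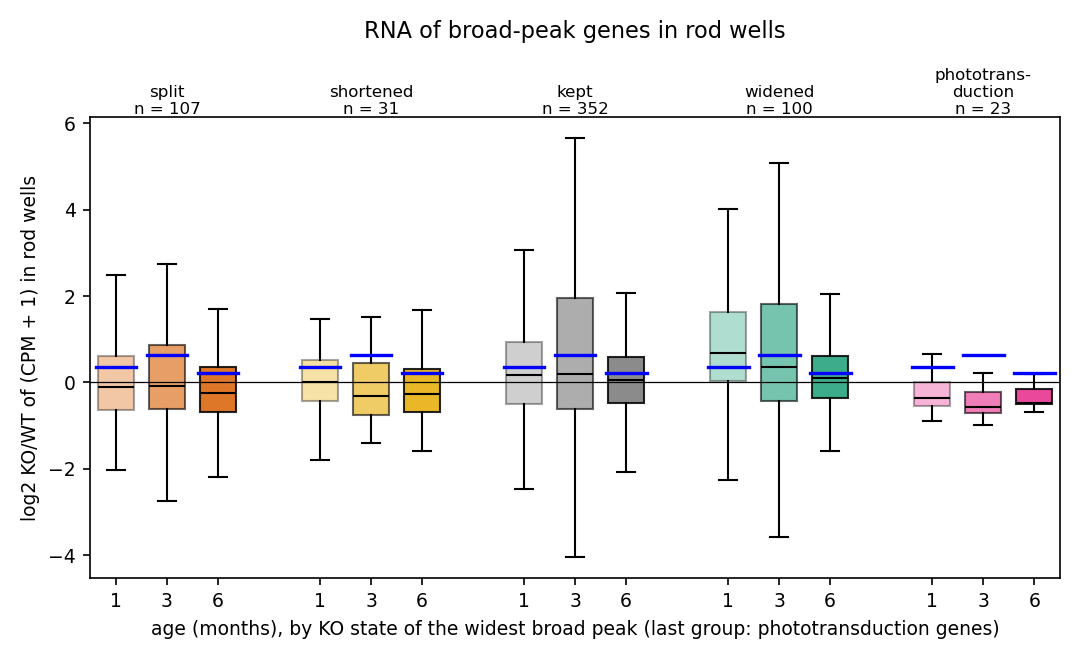
Boxes give the log2 KO/WT ratio of CPM plus 1 in rod wells at 1, 3 and 6 months for broad-peak genes by KO state of their widest peak, and for the 23 phototransduction genes (box, quartiles; black line, median; whiskers, 1.5 interquartile ranges; points beyond are not drawn); blue lines mark the median of all genes at that age. Split, shortened, kept and phototransduction genes have medians below the blue line at each age, and widened genes are above it at 1 month only.

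No broad-peak gene passed the test. In edgeR's quasi-likelihood fit of genotype with age as a factor, 10 of 11971 genes (0.0835%) had a Benjamini-Hochberg adjusted p under 0.05 and 0 of 633 broad-peak genes did. The smallest adjusted p among the latter was 0.144, for Pde6g. At an unadjusted p under 0.05 there were 93 broad-peak genes (14.7%; 8.20% of all genes), of which 75 had the lower value in KO, where 29.3% of all such genes did. By state of the widest peak, 23 of 119 split-peak genes were under that p (19.3%, 23 lower in KO). So were 10 of 31 shortened-peak genes (32.3%, 8 lower), 52 of 373 kept (13.9%, 41 lower) and 8 of 110 widened (7.27%, 3 lower). Leaving out 1 age gave 1 to 5 calls, all lower in KO. There were 5 without 1 month (Rom1 among them), where 20 of 11047 genes were called (0.181%), and 3 without 6 months (Pde6g among them), where 37 of 10564 were (0.350%). Without 3 months the call of Unc119 was 1 among 47 of 11960 (0.393%). DESeq2 called 31 of 629 broad-peak genes (4.93%; 7.59% of all), 22 higher and 9 lower. On simulated counts with the spread of these libraries, the edgeR fit recovered 0% of 200 genes changed by a log2 value of 3, so a count of 0 says little about the size of differences. Fitted changes of all genes had a median of 0.37, and changes below are given as fitted.

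The phototransduction genes with a broad peak lay mostly on the lower side. Of these 23 genes 22 had a fitted change below 0, with a median of -0.76, which is 1.13 below the median of all genes by log2. The count was also 22 with RLE scaling, with DESeq2 and over all wells, and 21 without 3 months and with the wider margin of the gate. The size was less stable: relative to all genes the median went from -1.13 to -0.54 over all wells and -0.79 without 3 months. Members at an unadjusted edgeR p under 0.05 were 16 of 23 (8.20% of all genes). They fell to 3 over all wells (4.02% of all) and 3 without 3 months (7.34% of all). With DESeq2 they were 5 (12.3% of all). In 12 of 23 every KO library was below every WT library (3.18% of all genes, 9.15% of broad-peak genes). In 0 every KO library was above (14.4% of all genes, 10.2% of broad-peak genes). The same counts were 4 and 1 for the 11 metabolism and housekeeping genes with a broad peak. Of those 11, 6 were lower in KO at all 3 ages, as were 14 of the 23 phototransduction genes. For the 16 measured members of the phototransduction list without a broad peak the counts were 2 and 6. Those members include cone genes, whose marker sums were higher in KO rod wells, the gate markers Cngb1 and Gngt1 and the mutated gene Spata7, so they are no matched contrast. Rom1 had 17194, 18939 and 13907 CPM in rod wells of WT and 13231, 9611 and 9735 CPM in KO at 1, 3 and 6 months, without overlap (fitted log2 change -0.95, edgeR adjusted p 0.202). Its peak was kept. Pde6g had 17214, 10963 and 13354 CPM against 6053, 6649 and 9647 CPM (fitted log2 change -1.22).

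Genes whose peaks lost many bases were not all lower. Pde6b had 3378, 4343 and 3826 CPM in WT and 3175, 2586 and 2732 CPM in KO, without overlap (fitted log2 change -0.76, edgeR adjusted p 0.436). Pde6a had 1254, 913 and 1389 CPM and 904, 619 and 996 CPM, which overlap. Grk1 had 474, 807 and 818 CPM in WT and 744, 571 and 506 CPM in KO, lower at 3 and 6 months and higher at 1 month. Sag, with 2 split peaks, had 10665, 10310 and 14435 CPM in WT and 24197, 10293 and 16582 CPM in KO, and its fitted change of 0.14 is the 1 value of the 23 above 0. Agpat3, under the widest peak, had 2097, 1839 and 2487 CPM in WT and 1286, 1453 and 1498 CPM in KO, without overlap (-0.91). Slc6a6 had 1095, 873 and 1167 CPM and 1062, 1114 and 733 CPM, which overlap.

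Photoreceptor transcription factors with a broad peak had median ratios of 0.24, 0.08 and -0.45 over 13 genes. In 1 of the 13 every KO library was below every WT library (3.18% of all genes) and in 0 every one was above (14.4%). Crx had 562, 625 and 698 CPM in WT rod wells and 736, 662 and 644 CPM in KO, and Nrl had 1021, 704 and 993 CPM and 861, 353 and 610 CPM, so both overlap (fitted log2 changes -0.20 and -0.97). Mef2c, a MADS-box factor with a kept distal peak, had 554, 447 and 701 CPM in WT and 238, 326 and 399 CPM in KO, and is the 1 gene without overlap (fitted log2 change -1.15, edgeR adjusted p 0.400). Otx2, under a widened peak, had 125, 122 and 390 CPM against 328, 208 and 225 CPM. Of the 14 immediate early and stress genes with a broad peak 4 had a fitted change below 0 (39.4% of all genes), with a median of 1.09. Relative to the median of all genes that is 0.72, against 0.06 without 6 months and -0.08 when all wells were used without a gate. Fos had 12.4, 0.554 and 0.186 CPM in WT rod wells and 39.7, 23.4 and 13.8 CPM in KO, without overlap, beside the higher Müller marker sums given above.

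Among all broad-peak genes, those with the largest median ratio of 1 sign at the 3 ages were 1600014C23Rik, Ankrd44, Smim24, Arl4d (163, 189 and 139 CPM in WT; 5.61, 22.5 and 139 CPM in KO) and Get4 on the lower side. The first 2 lie under a split and a shortened peak, and the other 3 under kept peaks. On the higher side were Zmiz1, a coregulator of nuclear receptors under a widened peak (0.386, 1.66 and 0.557 CPM in WT; 24.2, 89.0 and 20.3 CPM in KO), Htra1, a secreted protease, Gadd45g, from the immediate early and stress list, Cygb, cytoglobin, and Rasgrp2, a Ras family exchange factor. Their edgeR adjusted p-values ranged from 0.383 for 1600014C23Rik to 0.661 for Htra1. These 10 were picked for their ratios in the same libraries, so the values are a description. Over all wells the fitted change of Zmiz1 was 0.04 in place of 5.30, that of Htra1 0.51 in place of 4.47 and that of Gadd45g -0.69 in place of 5.56, and with the wider margin of the gate that of Get4 was 0.05 in place of -2.81. All 5 higher genes had their highest level in bipolar or Müller wells and all under 10 CPM in WT rod wells except Htra1 at 1 month (25.4 CPM).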

How the data were processed

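The members, gene lists and markers were chosen with earlier results of these data known. Peak positions, genes, distances and peak types are the authors' deposited values, 1 list per library. Cell Ranger ATAC 1.1.0 and mm10 are named for the ATAC samples, and CASAVA, TopHat2, HTSeq, Seurat and GRCm38 for the RNA samples, per the submitters' processing notes, which give no role or order. The peak threshold is not given in the sources used here. Peak starts were read as counted from 0 and are printed counted from 1. The deposited RNA tables hold whole-number counts of reads, not molecules, for each gene in each well. A well needed 300 genes and no more than 30% of its reads from mitochondrial genes, and 1 well of KO 6 months failed. No doublet caller was run.

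Genes of a peak are those annotated as promoter, or all annotated genes where none is. Wells took the class with the highest mean standardised marker score if it led by 0.2 (0.5 as an alternative); reads were summed per class and library and scaled to CPM, with classes under 5 wells left out. Named were the 10 widest peaks, the 5 largest changes per state, list members, genes with several broad peaks, and the 5 largest median ratios of 1 sign each way. The genes whose values are printed per library were picked from these after their values were seen. Tests used edgeR 4.0.16 (TMM, filterByExpr) and DESeq2 1.42.0 in R 4.3.3, at a threshold of 0.05; p-values measure only the spread between these 6 libraries, with differences between ages in it. The edgeR fit was tested on simulated data: at a dispersion of 0.05 it recovered 100% of 200 genes with 5 false calls, and 0% at the estimated 1.05. Python 3.11.15, pandas 2.3.3, numpy 2.4.6, scipy 1.17.1 and matplotlib 3.10.9 were used. Promoter windows of chromosome 18 were not used here, and some genes that the naming rule picks are not reported here.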

Additional observations from a re-analysis of the deposited data

How the results depend on the processing

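Peak states depend on the settings. With broad set at 3 kb or more, 13.0% were split. At 5 kb or more 49.0% were kept, 3.05% shortened and 29.4% split. With kept meaning within 25%, 69.1% were kept, 10.0% widened and 1.27% shortened. With KO peaks closer than 1000 bp joined, 45.6% were kept, 44.6% widened and 3.94% split. With both lists joined, chosen after seeing the data, 7.90% were shortened and 14.9% split. Requiring an overlap of 0.5 of either peak moved no share out of the 95% binomial interval of its main value. That interval counts peaks of 1 library per genotype as independent, which they are not, and is no test. Broad-peak genes called in rod wells numbered 0 with edgeR, 31 with DESeq2, 1 with RLE scaling (Pde6g; 12 of all 11971 genes called), 17 with no filter on low counts (0.293% of all) and 4 with the wider margin (Gnat1, Pde6g and Rom1 among them; 0.122% of all). Leaving out 1 age gave 1 to 5, among them 1600014C23Rik, Pkm, Rom1 and Vtn without 1 month, Unc119 without 3 months, and Arl4d, Gapdh and Pde6g without 6 months, all lower in KO, beside 0.181%, 0.393% and 0.350% of all genes. The fitted change reversed for Get4 with the wider margin (0.05) and for Gadd45g over all wells (-0.69). Over all wells all 10 genes named for their ratios had fitted changes closer to 0, such as Zmiz1 (0.04) and Htra1 (0.51), and with the gate on all rod markers Gadd45g was at 0.85 and Get4 at -0.91. The share highest in rod wells ranged from 35.9% to 39.2% over the gates, including one with all rod markers that was chosen after seeing the data. The fit has age as a factor, so the WT and KO libraries of an age are compared with each other. The labels number no replicates, so no other pairing was run. ATAC depth is unknown, and 2 lists from single libraries of different age allow no test.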

Other observations

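Of the 1106 KO peaks of 4000 bp or more, 3 overlapped no WT peak. The widest spanned 15912 bp near Hjurp and Mroh2a (chr1:88252161-88268072, mm10), one of 5223 bp lay at the promoter of Pcdh7, a protocadherin (chr5:57714748-57719970), and one of 4031 bp lay near the vomeronasal receptor gene Vmn1r2 (chr4:3080235-3084265). Rax, the retinal homeobox gene that is active from early eye development, lay whole in a WT peak of 9766 bp that was kept at 9699 bp.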
